A study of Mus musculus with 30 samples.

Results

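The 40 genes described here are those that cells switch on when a type I interferon is sensed, and they were followed in lungs and spleens of mice with and without a change at the lincRNA-Cox2 locus, after LPS and with PBS. The set was chosen by gene symbol, as known response genes, and not by a threshold in these tables. All 40 symbols were found, each on a single line, among the 19470 entries of the lung table and the 18845 entries of the spleen table. LPS, a cell wall component of Gram-negative bacteria, had been injected into the peritoneum at 20 mg/kg, and organs were taken 6 h later. The 3 genotypes were lincRNA-Cox2 mutant, lincRNA-Cox2 knockout and wild type, all labelled C57BL/6 and 8 weeks old. In each tissue every genotype had 3 libraries from LPS-treated mice and 2 from PBS-treated mice, which made 30 libraries. The labels give no time for PBS, do not describe how either line was made or whether it comes from 1 founder, and leave unsaid whether replicates are different animals and which organs came from 1 mouse.

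Type I interferons are secreted proteins, the interferon-alpha family and interferon-beta, that bind a receptor made of Ifnar1 and Ifnar2. The receptor activates the kinases Jak1 and Tyk2, which phosphorylate Stat2, and Stat2 joins Irf9 in a complex that binds a short DNA element in front of the response genes. LPS reaches this pathway through Tlr4, whose adaptors switch on interferon-beta by way of Irf3 and Irf7. The response genes make proteins that bind, modify or degrade viral RNA, trap viruses at membranes, tag proteins, or feed back on the signal, and a low level of them is kept up in healthy tissue by small amounts of interferon.

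Each level below is the mean of a group in normalized counts, as the authors give it. No value per library and no spread within a group was used here, so no mean below carries an error. Group totals of normalized counts ran between 7436911 and 10540190 in lung and between 3560672 and 5021085 in spleen, and the smallest group mean above 0 was 0.215 in lung and 0.199 in spleen. The members sat well above that floor, with group means between 28.4 and 35400 in lung and between 36.4 and 10000 in spleen. The targeted transcript matched the labels. In lung, lincRNA-Cox2 had group means of 0 in mutant, 0 in knockout and 30.2 in wild type with LPS, and 0 in mutant, 0 in knockout and 34.8 in wild type with PBS. In spleen it had 0 in mutant, 0.322 in knockout and 3.53 in wild type with LPS and 0 in mutant, 0 in knockout and 2.13 in wild type with PBS. Ptgs2, the neighbouring prostaglandin synthase gene, had lung means of 1058 in mutant, 208 in knockout and 1397 in wild type with LPS, and 154 in mutant, 23.4 in knockout and 189 in wild type with PBS. The lung epithelial markers summed to between 93092 and 132671 in the lung groups and to between 1104 and 2645 in the spleen groups, while the B cell markers summed to between 645 and 1594 in lung and to between 4518 and 13590 in spleen.

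The genotypes under LPS also differed in sex-linked transcripts. Xist, transcribed from the inactive X chromosome of females, had lung means of 4510 in mutant, 23.2 in knockout and 14.5 in wild type with LPS, and 3300 in mutant, 1910 in knockout and 3660 in wild type with PBS. Ddx3y, on the Y chromosome, had 4.73 in mutant, 1130 in knockout and 1150 in wild type with LPS, and 317 in mutant, 447 in knockout and 294 in wild type with PBS. Spleen showed the same split, with Xist at 4670 in mutant, 33.7 in knockout and 31.3 in wild type with LPS and at 4040 in mutant, 3510 in knockout and 2470 in wild type with PBS. The mutant LPS groups therefore carried female and almost no male transcript, the knockout and wild type LPS groups the reverse, and all PBS groups both. Under LPS, sex thus differed between mutant and both wild type and knockout, so genotype and sex cannot be told apart there. Sex also differed between LPS and PBS within each genotype, and its part in the values below was not tested.

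The members lie on 14 chromosomes in the GENCODE annotation of mm10, and several stand in families side by side. Ifit1 (chr19:34640871-34650009, plus strand), Ifit2 and Ifit3 are neighbours on chromosome 19, and Oas1a, Oas1g, Oas2 and Oas3 are neighbours on chromosome 5, where Oasl1 and Oasl2 also lie. Ifitm1, Ifitm2 and Ifitm3 lie together on chromosome 7, and Mx1 and Mx2 on chromosome 16. Rsad2 (chr12:26442746-26456452, minus strand) and Cmpk2 (chr12:26469204-26479837, plus strand) point away from each other. Dtx3l (chr16:35926511-35939151, minus strand) and Parp9 (chr16:35938470-35972605, plus strand) overlap at their starts, and whether reads were counted by strand is not given in the sources used here. Ifit3, Oas1a, Oas1g, Ifitm2, Ifitm3, Ifi27l2a and Phf11d have near-identical relatives in the mouse genome, so their means are uncertain to the extent that counting could divide or misplace shared reads.

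RefSeq promoters (GRCm38.p6) were at hand for 31 of the 40 members. Oas2, Parp9, Parp14, Mx1, Mx2, Rtp4, Ifi27l2a, Usp18 and Tor3a had no entry. The 250 bases before each start were searched on both strands for GAAANNGAA, the core letters of the element bound by the complex that holds Stat2 and Irf9. It was present in 12 of 31 members, or 38.7%, against 8.18% of all 27025 genes with a promoter entry. TTCNNNGAA, the palindrome of the interferon-gamma activated site, was present in 4 of 31 members, or 12.9%, against 8.13% of all genes. A match is only a description of letters, and matches on the 2 strands can overlap. The 12 members with GAAANNGAA were Ifit1, Ifit3, Isg15, Oas1a, Oas1g, Oas3, Rsad2, Ddx60, Ifitm2, Bst2, Stat2 and Lgals9.

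The promoters of 6 members that the results turn on are shown 5′ to 3′ on the strand of the gene, with capitals on every GAAANNGAA match of either strand. Ifit1 (chr19:34640639-34640888, plus strand) and Ifi44 (chr3:151749911-151750160, minus strand) are the members called between genotypes. Isg15 (chr4:156200819-156201068, minus strand) and Oas1g (chr5:120887614-120887863, minus strand) had wide resting differences in lung. Rsad2 (chr12:26456453-26456702, minus strand) had the highest LPS ratio of wild type lung, and Epsti1 (chr14:77903989-77904238, plus strand) the lowest of wild type spleen.
Ifit1: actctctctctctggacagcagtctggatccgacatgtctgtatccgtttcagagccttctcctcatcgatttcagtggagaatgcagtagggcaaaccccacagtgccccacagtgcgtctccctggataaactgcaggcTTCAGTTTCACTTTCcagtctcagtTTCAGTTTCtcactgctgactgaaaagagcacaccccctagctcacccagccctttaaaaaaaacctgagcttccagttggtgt
Ifi44: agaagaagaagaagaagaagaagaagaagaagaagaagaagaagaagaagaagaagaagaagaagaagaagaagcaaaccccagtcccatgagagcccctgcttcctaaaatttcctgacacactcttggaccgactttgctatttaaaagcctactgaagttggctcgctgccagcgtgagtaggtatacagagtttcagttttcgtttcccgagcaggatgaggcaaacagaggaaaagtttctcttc
Isg15: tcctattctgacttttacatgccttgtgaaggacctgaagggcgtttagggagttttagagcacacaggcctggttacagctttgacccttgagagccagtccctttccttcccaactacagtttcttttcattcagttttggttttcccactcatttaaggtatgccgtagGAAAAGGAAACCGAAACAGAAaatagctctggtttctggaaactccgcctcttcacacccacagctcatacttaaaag
Oas1g: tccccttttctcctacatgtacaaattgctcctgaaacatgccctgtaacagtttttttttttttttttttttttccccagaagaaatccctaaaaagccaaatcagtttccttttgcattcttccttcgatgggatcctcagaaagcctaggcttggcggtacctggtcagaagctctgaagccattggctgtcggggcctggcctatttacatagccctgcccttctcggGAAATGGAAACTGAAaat
Rsad2: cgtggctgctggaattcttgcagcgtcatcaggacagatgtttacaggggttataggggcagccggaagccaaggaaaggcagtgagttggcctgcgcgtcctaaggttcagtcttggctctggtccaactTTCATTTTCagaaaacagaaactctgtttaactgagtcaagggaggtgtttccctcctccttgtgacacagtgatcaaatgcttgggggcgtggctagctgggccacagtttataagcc
Epsti1: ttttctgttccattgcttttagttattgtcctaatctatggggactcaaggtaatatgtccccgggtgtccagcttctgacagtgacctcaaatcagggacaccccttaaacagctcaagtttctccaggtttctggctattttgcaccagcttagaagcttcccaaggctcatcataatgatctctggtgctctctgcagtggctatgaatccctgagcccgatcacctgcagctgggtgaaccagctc
The capitals of Ifit1 begin between 109 and 84 bases before the start and hold 3 matches. Isg15 also holds 3, which begin between 78 and 66 bases before the start and overlap in a single run. The 2 of Oas1g begin 18 and 12 bases before it, and the 1 of Rsad2 begins 119 bases before it. Ifi44 and Epsti1 have no match in this window.

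After LPS the mean level of nearly the whole set was higher in every genotype and in both organs. Ratios of group means are given as log2 with a pseudocount of 1, and 2-fold means a ratio of at least 1 on that scale; the effect of LPS itself was not tested in the tables, and the counts below are of means, not of calls. In lung, 40 of 40 members were at least 2-fold higher with LPS in mutant, 40 in knockout and 38 in wild type, against 15.5% in mutant, 16.9% in knockout and 13.9% in wild type of all entries whose mean reached 10 under LPS or PBS. In spleen the counts were 39 in mutant, 38 in knockout and 35 in wild type, against 15.3% in mutant, 16.6% in knockout and 13.5% in wild type of all entries. The median member ratio in lung was 3.55 in mutant, 3.25 in knockout and 2.74 in wild type. In spleen it was 3.10 in mutant, 3.01 in knockout and 1.85 in wild type, while the median of all entries lay between -0.03 and 0.02 in these 6 contrasts.

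**Figure D1:**
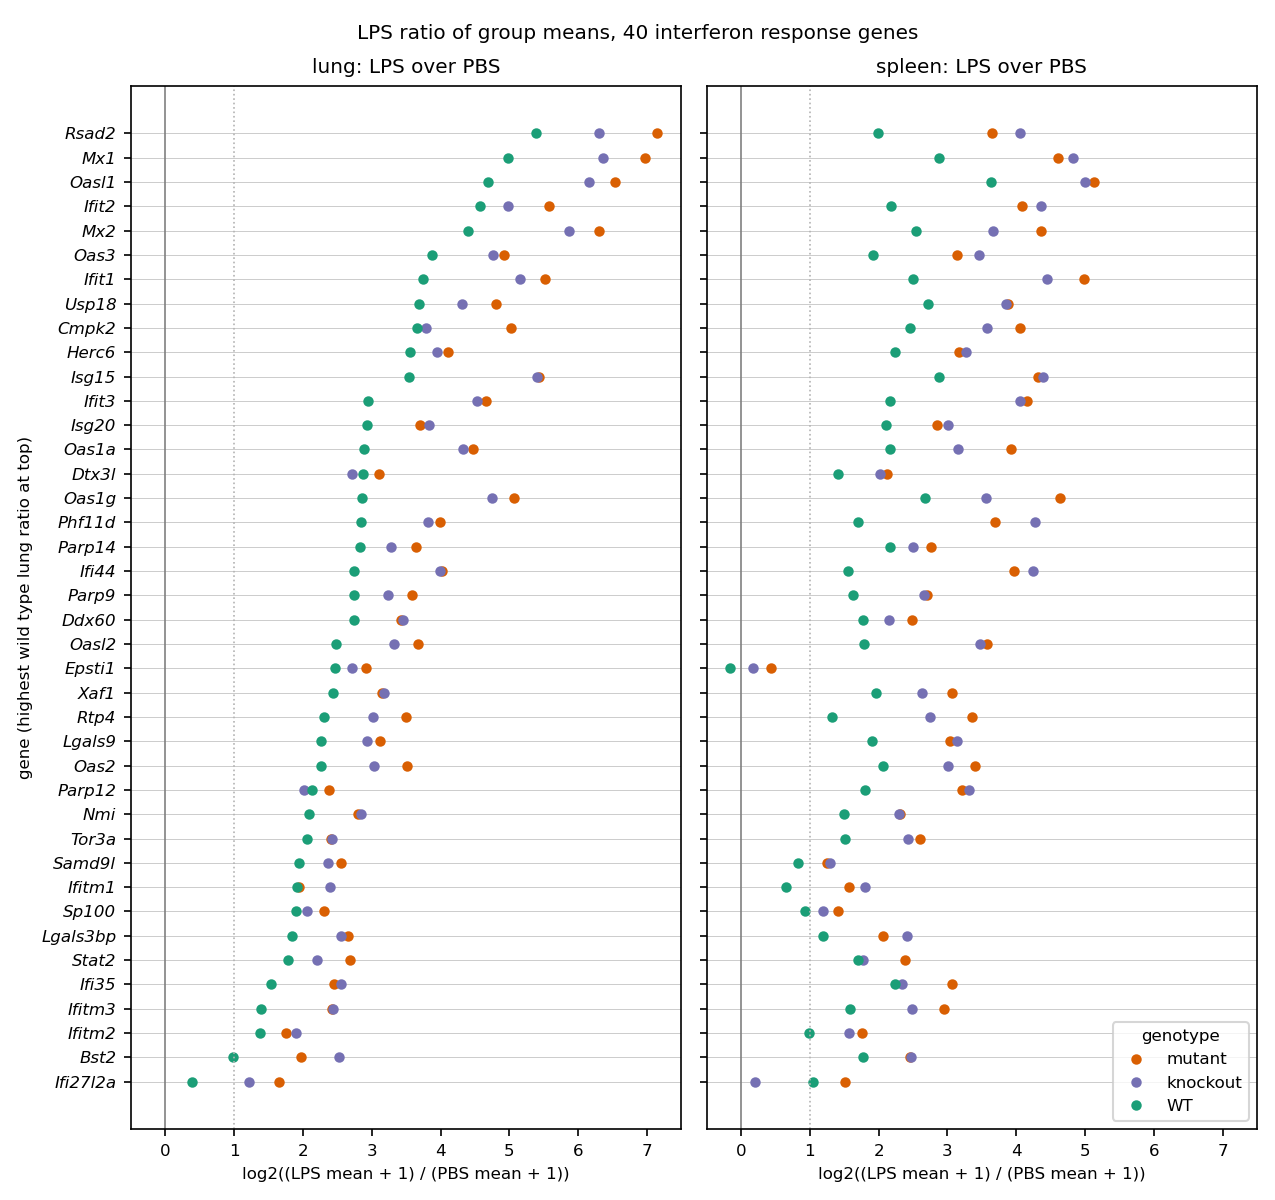
Log2 ratio of the LPS to the PBS group mean (x axis, pseudocount 1) for each of the 40 genes (y axis, ordered by wild type lung) in lung (left) and spleen (right), with 1 point per genotype. Wild type points lie left of the mutant points for all 40 genes in both organs, the lung ratios reach 7.14 for Rsad2 in mutant, and Epsti1 in spleen lies between -0.17 and 0.43.

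The RNA-binding Ifit proteins recognise viral RNA ends and block its translation. Of their genes, Ifit2 was among the 5 highest wild type LPS ratios in lung, and no Ifit gene was in spleen. Ifit1 had lung means of 24100 in mutant, 21800 in knockout and 17900 in wild type with LPS, against 523 in mutant, 608 in knockout and 1340 in wild type with PBS. Ifit2 had 17300 in mutant, 11900 in knockout and 11800 in wild type with LPS, against 361 in mutant, 376 in knockout and 492 in wild type with PBS. For both genes the LPS mean of every genotype lay far above all PBS means. The 3 Ifit genes had log2 LPS ratios of 4.67 to 5.58 in mutant, 4.54 to 5.16 in knockout and 2.95 to 4.58 in wild type lung, and of 4.09 to 4.99 in mutant, 4.05 to 4.44 in knockout and 2.16 to 2.5 in wild type spleen.

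The oligoadenylate synthetases make a short messenger of linked adenylates in response to double-stranded RNA, while their relative Oasl1 lacks that activity and in mouse restrains translation of Irf7. Oasl1 had lung means of 5080 in mutant, 3720 in knockout and 3230 in wild type with LPS, against 53.9 in mutant, 51.3 in knockout and 124 in wild type with PBS. In spleen Oasl1 had 4240 in mutant, 3010 in knockout and 3190 in wild type with LPS, against 120 in mutant, 92.9 in knockout and 256 in wild type with PBS, and its log2 ratios of 5.13 in mutant, 5.00 in knockout and 3.63 in wild type were the highest of any member there. Oas1g had lung means of 1290 in mutant, 791 in knockout and 844 in wild type with LPS, against 37.5 in mutant, 28.4 in knockout and 115 in wild type with PBS. Its spleen means were 1380 in mutant, 518 in knockout and 868 in wild type with LPS, against 54.5 in mutant, 42.9 in knockout and 135 in wild type with PBS, so that the knockout was the lowest genotype in both treatments. All 6 family members passed 2-fold in all 6 contrasts, with median ratios of 4.70 in mutant, 4.54 in knockout and 2.88 in wild type in lung and 3.75 in mutant, 3.47 in knockout and 2.12 in wild type in spleen.

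Proteins of the Mx family are dynamin-like GTPases that can block incoming viruses, and RNA levels do not show whether these mice make working ones. Mx1 had lung means of 5190 in mutant, 3610 in knockout and 2830 in wild type with LPS, against 40.4 in mutant, 43.1 in knockout and 88.8 in wild type with PBS. Mx2 had 3160 in mutant, 2310 in knockout and 1730 in wild type with LPS, against 38.9 in mutant, 38.4 in knockout and 81.4 in wild type with PBS. Both genes ran in the order mutant, knockout, wild type with LPS and with PBS each line was below wild type. In spleen Mx1 had 2290 in mutant, 1830 in knockout and 1330 in wild type with LPS, against 92.9 in mutant, 63.4 in knockout and 180 in wild type with PBS.

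Isg15 is a ubiquitin-like tag, Herc6 the ligase that attaches it in mouse, and Usp18 the protease that removes it and also dampens the receptor. Isg15 had lung means of 5310 in mutant, 5140 in knockout and 4120 in wild type with LPS, against 122 in mutant, 121 in knockout and 353 in wild type with PBS. In spleen it had 5360 in mutant, 3800 in knockout and 4660 in wild type with LPS, against 269 in mutant, 180 in knockout and 631 in wild type with PBS. The resting level of Isg15 was thus below wild type in both lines and both organs. Usp18 had spleen means of 1960 in mutant, 1360 in knockout and 1740 in wild type with LPS, against 132 in mutant, 93.5 in knockout and 264 in wild type with PBS. The 3 genes had ratios between 3.54 and 5.43 in the lung groups and between 2.24 and 4.39 in the spleen groups.

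Rsad2, or viperin, makes a nucleotide analogue that stops viral polymerases, and its neighbour Cmpk2 is a nucleotide kinase. Rsad2 had lung means of 35400 in mutant, 19500 in knockout and 19300 in wild type with LPS, against 250 in mutant, 245 in knockout and 459 in wild type with PBS, and its log2 ratios were 7.14 in mutant, 6.31 in knockout and 5.39 in wild type. Its spleen means were 10000 in mutant, 7850 in knockout and 8460 in wild type with LPS, against 799 in mutant, 472 in knockout and 2120 in wild type with PBS. The wild type spleen started from a higher resting level of Rsad2 than the lung did, and its log2 LPS ratio there was 2.00. The exonuclease gene Isg20 had spleen means of 3120 in mutant, 2380 in knockout and 2460 in wild type with LPS, against 433 in mutant, 294 in knockout and 568 in wild type with PBS.

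The membrane proteins that hold back virus entry and release were high at rest and had smaller ratios. Per kilobase of exon, a scale on which genes can be compared, Ifitm3 had the highest mean of all 40 members in wild type in both organs and both treatments, and Ddx60, an RNA helicase-like gene, the lowest. In lung Ifitm3 had 13800 in mutant, 15000 in knockout and 12300 in wild type with LPS, against 2560 in mutant, 2770 in knockout and 4680 in wild type with PBS. Bst2, or tetherin, had 2340 in mutant, 3180 in knockout and 2260 in wild type with LPS, against 598 in mutant, 552 in knockout and 1140 in wild type with PBS. Ifitm2 had 6780 in mutant, 8120 in knockout and 6240 in wild type with LPS, against 2010 in mutant, 2170 in knockout and 2400 in wild type with PBS. For these 3 genes the knockout had the highest lung mean with LPS. Ifitm1 had spleen means of 470 in mutant, 589 in knockout and 526 in wild type with LPS, against 157 in mutant, 169 in knockout and 334 in wild type with PBS, and lung means of 2010 in mutant, 2460 in knockout and 2020 in wild type against 521 in mutant, 467 in knockout and 537 in wild type.

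The ADP-ribosyltransferase genes Parp9, Parp12 and Parp14, with Dtx3l, the ubiquitin ligase partner of Parp9, passed 2-fold in every contrast, with ratios between 2.01 and 3.64 in lung and between 1.41 and 3.31 in spleen. Dtx3l had lung means of 4610 in mutant, 3610 in knockout and 3970 in wild type with LPS, against 535 in mutant, 549 in knockout and 542 in wild type with PBS, so that its lung PBS means differed little between genotypes. Parp14 had spleen means of 5560 in mutant, 3960 in knockout and 4820 in wild type with LPS, against 823 in mutant, 697 in knockout and 1070 in wild type with PBS. Stat2, the transducer itself, and the interacting proteins Nmi and Ifi35 had ratios between 1.54 and 2.84 in lung and between 1.49 and 3.06 in spleen. Ifi35 had spleen means of 2460 in mutant, 1540 in knockout and 1910 in wild type with LPS, against 294 in mutant, 304 in knockout and 402 in wild type with PBS. The galectin gene Lgals9 and the galectin-binding gene Lgals3bp had ratios between 1.85 and 3.11 in lung and between 1.20 and 3.14 in spleen.

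The remaining 9 genes have mixed or little-known roles, and they held the lowest wild type ratio of each organ, that of Ifi27l2a at 0.39 in lung and that of Epsti1 at -0.17 in spleen. Next in wild type were the membrane genes, with Bst2 at 0.99, Ifitm2 at 1.38 and Ifitm3 at 1.39 in lung and Ifitm1 at 0.65 in spleen. Ifi27l2a had lung means of 675 in mutant, 539 in knockout and 535 in wild type with LPS, against 214 in mutant, 232 in knockout and 408 in wild type with PBS. Its spleen means were 1390 in mutant, 664 in knockout and 1450 in wild type with LPS, against 488 in mutant, 578 in knockout and 701 in wild type with PBS, so that the knockout mean was low with LPS and not with PBS. Epsti1 had spleen means of 676 in mutant, 738 in knockout and 755 in wild type with LPS, against 500 in mutant, 651 in knockout and 847 in wild type with PBS, and in wild type its LPS mean was below its PBS mean. In lung the same gene had 868 in mutant, 751 in knockout and 777 in wild type with LPS, against 114 in mutant, 114 in knockout and 140 in wild type with PBS. Samd9l, which restrains translation, had spleen means of 1990 in mutant, 1950 in knockout and 2110 in wild type with LPS, against 833 in mutant, 797 in knockout and 1190 in wild type with PBS. Sp100, a nuclear body protein, had 3650 in mutant, 3330 in knockout and 3590 in wild type with LPS, against 1370 in mutant, 1450 in knockout and 1890 in wild type with PBS. Ifi44, Rtp4, Xaf1, Phf11d and Tor3a had ratios between 2.06 and 4.02 in lung and between 1.32 and 4.27 in spleen.

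**Figure D2:**
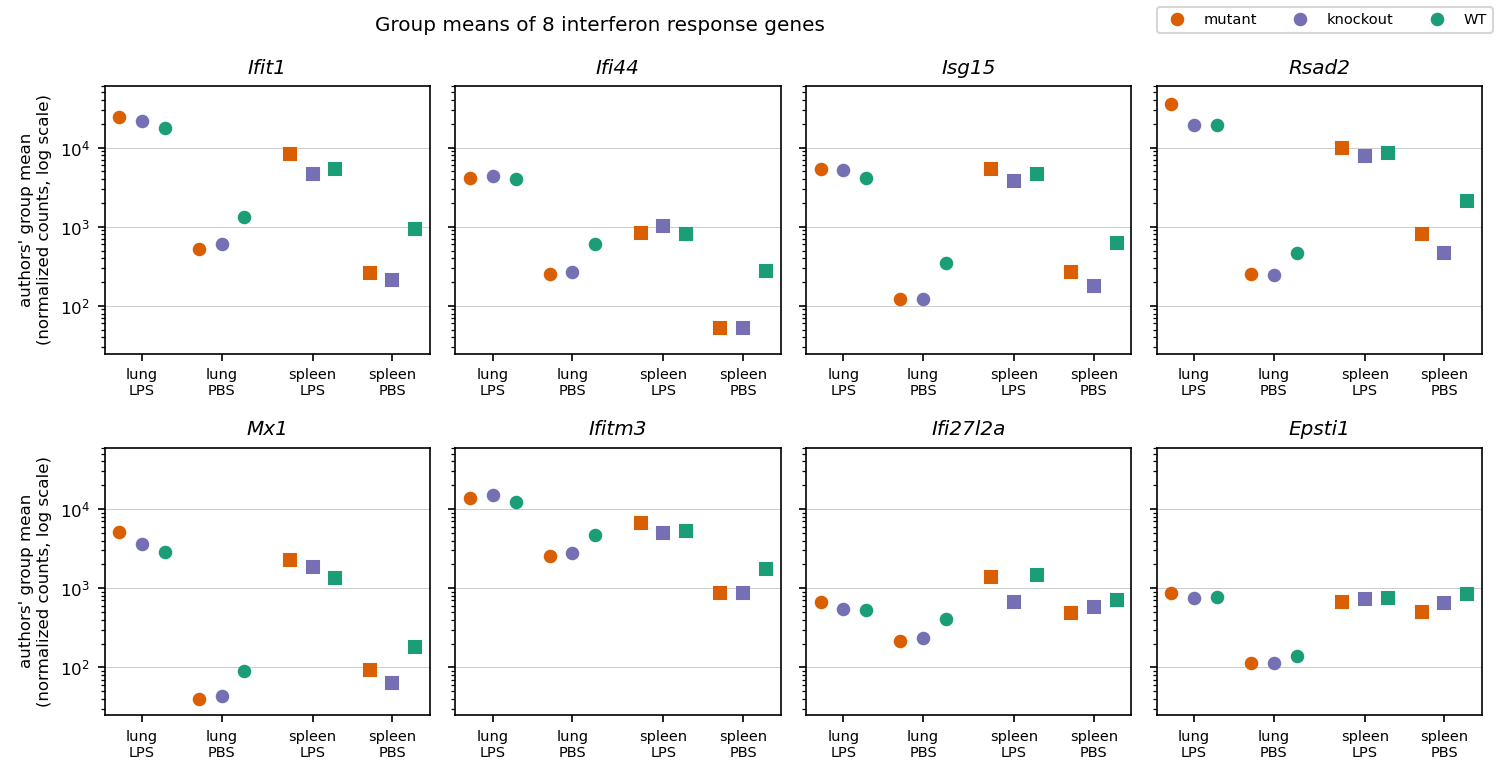
Authors' group mean of normalized counts (log y axis) for 8 of the genes in each tissue and treatment, with mutant left of knockout and knockout left of wild type, circles for lung and squares for spleen. The PBS points of both lines lie below wild type for all 8 genes, while the LPS points show no common order. With LPS, Ifi27l2a in spleen had 1390 in mutant, 664 in knockout and 1450 in wild type. Epsti1 in spleen differs little between LPS and PBS, with means between 500 and 847.

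Across members, LPS ratios in the 2 organs went together. The Spearman correlation of lung with spleen over the 40 genes was 0.85 in mutant, 0.86 in knockout and 0.71 in wild type, as a description of genes whose lung and spleen libraries may come from the same mice. The ratio was larger in lung for 34 genes in mutant, 33 in knockout and 36 in wild type. Rsad2 differed most in wild type, by 3.39 on the log2 scale, and Bst2 was the gene that leaned most to spleen there, at -0.78.

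With PBS the means of the members were lower in mutant and in knockout than in wild type, in both organs. In lung, 40 of 40 members were below wild type in mutant and 39 in knockout, where 51.9% of all entries in mutant and 47.9% in knockout were below 0. At least 2-fold lower were 12 members in mutant and 12 in knockout, or 30% in each, against 0.959% of all entries in mutant and 1.11% in knockout. In spleen, 40 members were below wild type in mutant and 40 in knockout, where 49.3% of all entries were below 0 in each. At least 2-fold lower were 20 members in mutant and 21 in knockout, against 3.04% of all entries in mutant and 3.02% in knockout. The median member log2 ratio to wild type was -0.70 in mutant and -0.64 in knockout lung, and -1.0 in mutant and -1.09 in knockout spleen, while the median of all entries lay between -0.01 and 0.01. The 2 lines are set against the same 2 wild type libraries in each organ, so their counts are not independent of each other. Group means do not show whether both of those libraries carry the higher level.

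The families differed in how far below wild type they were at rest. The oligoadenylate synthetases had median ratios of -1.25 in mutant and -1.20 in knockout lung and of -1.33 in mutant and -1.63 in knockout spleen. Oas1a had lung means of 2240 in mutant, 1810 in knockout and 1950 in wild type with LPS, against 100 in mutant, 89.5 in knockout and 263 in wild type with PBS. Oasl2 had spleen means of 3890 in mutant, 3550 in knockout and 3780 in wild type with LPS, against 326 in mutant, 318 in knockout and 1091 in wild type with PBS. Oas3 had spleen means of 1870 in mutant, 1490 in knockout and 1890 in wild type with LPS, against 212 in mutant, 134 in knockout and 501 in wild type with PBS. For all 3 genes the PBS means of the lines were below wild type and the LPS means of the genotypes lay near each other. The Parp genes with Dtx3l had medians of -0.35 in mutant and -0.28 in knockout lung and of -0.62 in mutant and -0.68 in knockout spleen. Phf11d, of little-known function, had spleen means of 749 in mutant, 1200 in knockout and 716 in wild type with LPS, against 56.8 in mutant, 61.3 in knockout and 220 in wild type with PBS.

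In lung the smallest resting difference of both lines was that of Dtx3l, at -0.02 in mutant and 0.02 in knockout. Next were Ifitm1 at -0.04 and Tor3a at -0.08 in mutant, and Samd9l at -0.10 and Ifitm2 at -0.15 in knockout. Tor3a, a torsin-family ATPase, had lung means of 4080 in mutant, 2850 in knockout and 3360 in wild type with LPS, against 766 in mutant, 532 in knockout and 807 in wild type with PBS. The mutant PBS mean of Tor3a was near wild type and the knockout PBS mean was not. Samd9l had lung means of 5120 in mutant, 5180 in knockout and 4120 in wild type with LPS, against 874 in mutant, 1000 in knockout and 1070 in wild type with PBS. In spleen the smallest resting ratios were -0.38 for Parp14 and -0.39 for Isg20 in mutant, and -0.28 for Ifi27l2a and -0.38 for Epsti1 in knockout.

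In the authors' deposited table, the members called at an adjusted p under 0.05 were in the spleen comparison of knockout with wild type under PBS, and numbered 2 of the 39 with a p-value, against 0.16% of the 3124 entries with one. Ifit1 had PBS means of 213 in knockout, 259 in mutant and 940 in wild type spleen. For knockout over wild type the authors' deposited table gives Ifit1 a fold of -1.88 on the log2 scale, at 0.0295 for the adjusted p. Ifi44, a cytoplasmic protein of little-known function, had PBS means of 53.2 in knockout, 52.8 in mutant and 275 in wild type. The authors' deposited table gives Ifi44 a fold of -2.01 on the log2 scale, also at 0.0295 for the adjusted p. With LPS the spleen means of Ifit1 were 4656 in knockout, 8241 in mutant and 5310 in wild type, and those of Ifi44 were 1022 in knockout, 837 in mutant and 810 in wild type. Both genes fell in knockout with PBS and were not called between any genotypes with LPS. At the authors' own limit of 0.1 the count was 4 members, against 0.384% of entries, with Oas2 and Oasl2 added, for which the authors' deposited table lists 0.0904 each as the adjusted p. The other 3 entries called at 0.05 were Irf7, Mmp3 and Slfn4, all lower in knockout; the last 2 are named after their values were seen.

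The mutant had almost the same resting means without a call. For mutant over wild type with PBS in spleen the authors' deposited table gives Ifi44 a fold of -2.02 on the log2 scale, at 0.254 for the adjusted p. That table carries an adjusted p for 18357 entries in the mutant comparison and for 3124 in the knockout comparison, where every entry with a p had an overall mean of at least 319 and Ddx60 had none. A call in one line and not in the other is therefore no difference between the lines. Knockout over mutant with PBS, the direct comparison, had 0 of 40 members called in spleen, against 0% of entries, and 0 in lung, against 0.0523%. The median member ratio of knockout over mutant with PBS was 0.06 in lung and -0.06 in spleen.

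No member was called by the authors' DESeq2 adjusted p in any of the remaining comparisons, at 0.05 or at the authors' own limit of 0.1, and unadjusted p-values were not used here. With PBS this held for mutant over wild type in lung, where 0.00524% of entries were called, for knockout over wild type in lung, where 0.0421% were, and for mutant over wild type in spleen, where 0% were. The lowest adjusted p of a member in the authors' deposited table was 0.951 for Ifit1 in mutant lung, 0.447 for Oas1g in knockout lung and 0.254 for Ifi44 in mutant spleen. Oas1g had the widest resting ratio in lung, at -1.59 in mutant and -1.98 in knockout. The resting differences were thus present in the means of nearly every member, and with 2 libraries a group the authors' test passed 2 genes.

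**Figure D3:**
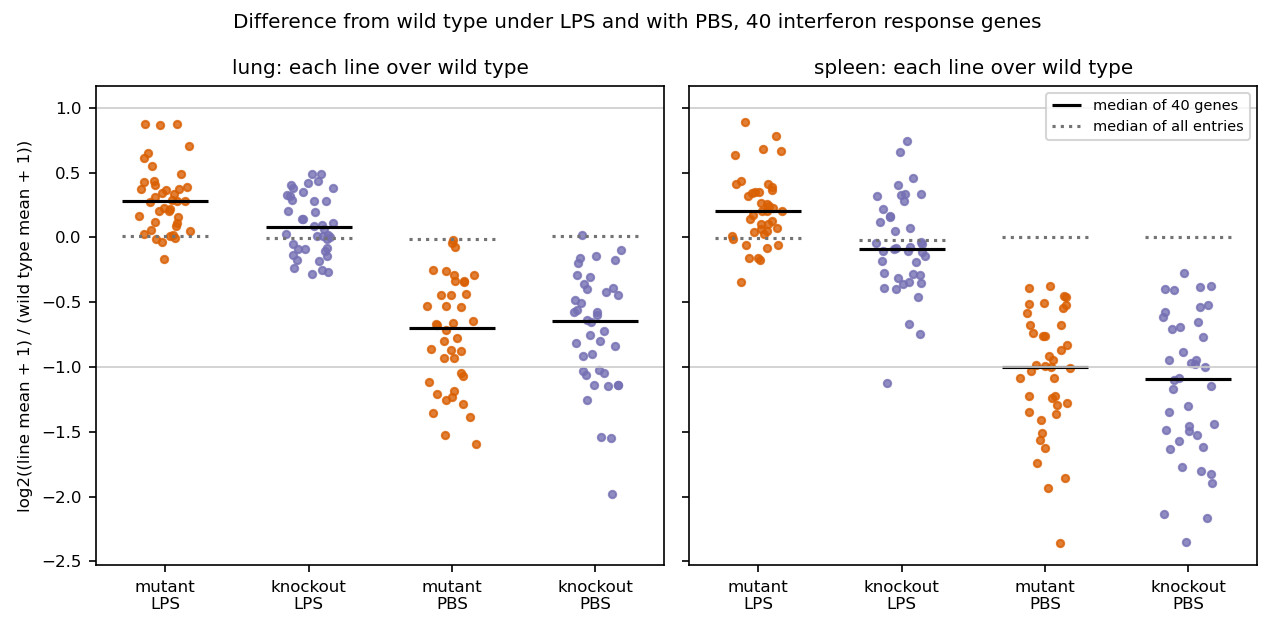
Log2 ratio of each line's group mean to the wild type mean (y axis, pseudocount 1) for the 40 genes, under LPS and with PBS, in lung (left) and spleen (right). Points are genes, solid bars the median of the 40 and dotted bars the median of all entries. The PBS medians lie between -1.09 and -0.64 and the LPS medians between -0.09 and 0.28.

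Several other measures moved with the resting groups. The macrophage and monocyte list, with 8 of 9 markers in the table, summed to 17544 in mutant, 17104 in knockout and 25471 in wild type lung with PBS, and to 6327 in mutant, 5716 in knockout and 6856 in wild type in spleen. Of those 8 markers, 5 in mutant and 7 in knockout lung and 4 in mutant and 5 in knockout spleen were below wild type, so the list did not move as one in spleen. The lung epithelial list summed to 93092 in mutant, 93951 in knockout and 132671 in wild type lung with PBS, and all 8 of its markers were below wild type in both lines, with median ratios of -0.43 in mutant and -0.38 in knockout. The neutrophil list, with 10 of 11 markers, summed to 3484 in mutant, 2794 in knockout and 3058 in wild type in lung and to 3741 in mutant, 3211 in knockout and 5715 in wild type in spleen, where all 10 were below wild type in both lines. The list for plasmacytoid dendritic cells, the cells that make the most interferon-alpha, had all 9 markers found. It summed to 3968 in mutant, 4150 in knockout and 4129 in wild type in lung. In spleen it summed to 4929 in mutant, 4513 in knockout and 3841 in wild type. In lung its markers went both ways, with Siglech below wild type in both lines and Cox6a2 above it in both. Hepatocyte markers, which should be absent from both organs, summed to 24.8 in mutant, 192 in knockout and 550 in wild type in lung and to 23.5 in mutant, 154 in knockout and 1501 in wild type in spleen. Pancreatic acinar markers summed to 43.2 in mutant, 50.8 in knockout and 629 in wild type in lung and to 20710 in mutant, 2959 in knockout and 1255 in wild type in spleen. Skeletal muscle markers summed to 69.6 in mutant, 2598 in knockout and 71.3 in wild type lung with PBS. Among the PBS groups, wild type thus had the highest sums of hepatocyte and of macrophage and monocyte markers in both organs. It also had the highest sums of lung epithelial, erythroid and pancreatic acinar markers in lung. In spleen it had the highest sums of neutrophil, natural killer cell, endothelial and skeletal muscle markers. Its sums of B cell and T cell markers were the lowest in both organs, at 1105 and 395 in lung and 10407 and 2373 in spleen. Natural killer cell and endothelial sums in lung, and plasmacytoid dendritic and pancreatic acinar sums in spleen, were also lowest in wild type. No marker of any list was at 0 in the wild type PBS groups. The part of these lists in the resting ratios was not tested. In whole organs fewer cells of a type and less RNA per cell cannot be told apart.

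Under LPS the median ratios of the lines to wild type lay nearer 0 than with PBS. The median member ratio to wild type was 0.28 in mutant and 0.08 in knockout lung, and 0.20 in mutant and -0.09 in knockout spleen. In lung 36 members were above wild type in mutant and 25 in knockout, and in spleen 32 in mutant and 15 in knockout. Below wild type were 4 members in mutant and 14 in knockout lung, where 47.5% of all entries in mutant and 50.7% in knockout were below 0. In spleen 8 members in mutant and 25 in knockout were below it, where 50.3% of all entries in mutant and 51.5% in knockout were. Most members thus lay above wild type in mutant of both organs, by less than 2-fold each, in groups that also differed in sex. None of the 40 was called in mutant over wild type, where the authors' deposited table called 0.0715% of lung and 0.00545% of spleen entries. None was called in knockout over wild type, where it called 0.441% of lung and 0.0241% of spleen entries, or in knockout over mutant, where it called 0.243% of lung and 0.177% of spleen entries. In lung the largest mutant ratios under LPS were those of Rsad2, at 0.88, and of Mx1 and Mx2, at 0.87 each. In spleen the lowest knockout ratio under LPS was that of Ifi27l2a, at -1.13, where the authors' deposited table lists 0.553 as the adjusted p. Knockout over mutant in spleen under LPS had its lowest ratio at Oas1g, at -1.41, where the authors' deposited table lists 0.237 as the adjusted p.

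The gap to wild type was wider at rest than under LPS for most members. This was so in lung for 32 of 40 genes in mutant and 33 in knockout, and in spleen for 40 in mutant and 39 in knockout. The log2 LPS ratio exceeded that of wild type for 40 genes in mutant and 38 in knockout lung, with median differences of 0.99 in mutant and 0.75 in knockout. In spleen it did so for 40 genes in mutant and 39 in knockout, with median differences of 1.15 in mutant and 1.03 in knockout. The same difference over all entries had medians between -0.02 and 0.02. The higher ratios of the lines thus went with lower PBS means, as in Ifi44 in spleen, whose ratios of 3.96 in mutant, 4.24 in knockout and 1.55 in wild type stood beside LPS means of 837 in mutant, 1022 in knockout and 810 in wild type. These ratios share the PBS means with the resting comparison and are no separate observation of it.

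Members with higher LPS ratios had wider resting gaps, also when the 2 measures shared no library. The PBS means of the 2 lines lay near each other, with median knockout over mutant ratios of 0.06 in lung and -0.06 in spleen. A low resting level common to both lines thus enters both measures, which are not separate observations. The LPS ratio of mutant and the PBS ratio of knockout over wild type had a Pearson correlation of -0.55 and a Spearman correlation of -0.56 over the 40 genes in lung, and a Pearson of -0.76 and a Spearman of -0.81 in spleen. The LPS ratio of knockout and the PBS ratio of mutant over wild type had a Pearson of -0.59 and a Spearman of -0.62 in lung, and a Pearson of -0.64 and a Spearman of -0.69 in spleen. These are descriptions across genes, which are not independent replicates. The gaps also went together between organs, with Spearman correlations of 0.62 in mutant and 0.65 in knockout. Lung and spleen libraries may come from the same mice, so the 2 organs may not be separate observations. Among the genes with a promoter entry, the 12 with GAAANNGAA had a median PBS ratio of -1.07 in mutant and -1.09 in knockout lung, and the 19 without it had -0.45 in mutant and -0.42 in knockout. In spleen the medians were -1.23 in mutant and -1.46 in knockout with the letters, and -1.0 in mutant and -0.97 in knockout without. The ranges overlapped, since Ifi44, with no match in the window, had the widest gap in spleen.

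**Figure D4:**
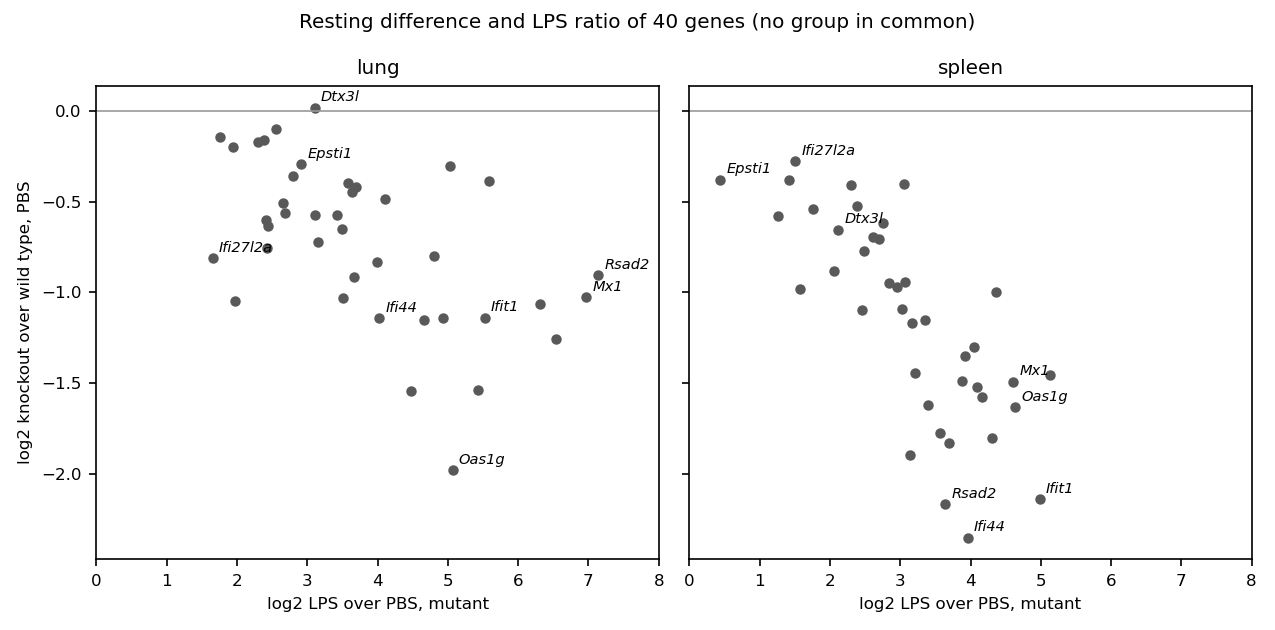
Log2 ratio of knockout to wild type with PBS (y axis) against the log2 LPS ratio of mutant (x axis) for the 40 genes. Lung is on the left and spleen on the right, with 1 point per gene. No library is used on both axes. The PBS means of mutant and knockout lay near each other, so the axes are not separate observations. Points run downwards from Epsti1 and Ifi27l2a towards Ifit1 and Ifi44 in spleen, where the Spearman correlation was -0.81, and scatter more in lung, where it was -0.56.

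Upstream, the genes of the pathway divided by role. Interferon-beta, Ifnb1, was at 0 in all 6 PBS groups, and with LPS it had lung means of 0 in mutant, 2.19 in knockout and 0.664 in wild type and spleen means of 1.13 in mutant, 1.27 in knockout and 0.46 in wild type, too low for any comparison. Interferon-gamma, Ifng, the type II ligand, had lung means of 744 in mutant, 1320 in knockout and 973 in wild type with LPS, against 8.03 in mutant, 12.7 in knockout and 8.62 in wild type with PBS, and spleen means of 1380 in mutant, 4690 in knockout and 1700 in wild type with LPS, against 21.1 in mutant, 13.0 in knockout and 11.8 in wild type with PBS. The PBS mean of Ifng in wild type was not the highest of the genotypes in either organ. These PBS means were low, between 8.03 and 21.1, and carry no spread, so their order is uncertain. The receptor Ifnar1 had lung means of 1140 in mutant, 1070 in knockout and 1130 in wild type with LPS, against 908 in mutant, 981 in knockout and 949 in wild type with PBS, and Ifnar2 had 1870 in mutant, 1830 in knockout and 1750 in wild type against 875 in mutant, 993 in knockout and 857 in wild type. In spleen Ifnar1 had 372 in mutant, 328 in knockout and 414 in wild type with LPS, against 416 in mutant, 374 in knockout and 405 in wild type with PBS, and Ifnar2 had 738 in mutant, 728 in knockout and 602 in wild type against 364 in mutant, 446 in knockout and 447 in wild type. None of the 6 interferon receptor genes was 2-fold lower or higher in either line with PBS, and their median ratio to wild type was 0.02 in mutant and 0.13 in knockout lung and -0.15 in mutant and 0.00 in knockout spleen.

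Among the transducers, Irf9 had lung means of 2540 in mutant, 2030 in knockout and 2270 in wild type with LPS, against 643 in mutant, 629 in knockout and 850 in wild type with PBS, and spleen means of 797 in mutant, 699 in knockout and 872 in wild type against 440 in mutant, 422 in knockout and 619 in wild type. With PBS, none of the 5 signalling genes Jak1, Jak2, Tyk2, Irf9 and Stat3 was 2-fold lower or higher in either line, and 2 in mutant and 2 in knockout lung and 3 in mutant and 4 in knockout spleen were below wild type. Irf7, itself a response gene and the factor that widens the response, had lung means of 8040 in mutant, 9110 in knockout and 7480 in wild type with LPS, against 242 in mutant, 270 in knockout and 842 in wild type with PBS. In spleen Irf7 had 4270 in mutant, 4376 in knockout and 4580 in wild type with LPS, against 343 in mutant, 274 in knockout and 1205 in wild type with PBS, and for knockout over wild type with PBS the authors' deposited table gives it a fold of -1.86 on the log2 scale, at 0.0295 for the adjusted p. The other genes that lead from Tlr4 to interferon had no such common direction: of 10, Irf7 included, 5 were below wild type with PBS in mutant and 5 in knockout lung, and 6 in mutant and 7 in knockout spleen.

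The negative regulator Socs1 had lung means of 550 in mutant, 748 in knockout and 564 in wild type with LPS, against 16.1 in mutant, 22.7 in knockout and 23.4 in wild type with PBS, and spleen means of 481 in mutant, 536 in knockout and 493 in wild type against 30.0 in mutant, 43.3 in knockout and 51.2 in wild type. With LPS, 5 of 7 negative regulators were at least 2-fold higher in each genotype in lung and 4 of 7 in spleen. Uba7 and Ube2l6, which load Isg15 for its attachment, were both at least 2-fold higher with LPS in each genotype in lung.

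**Figure D5:**
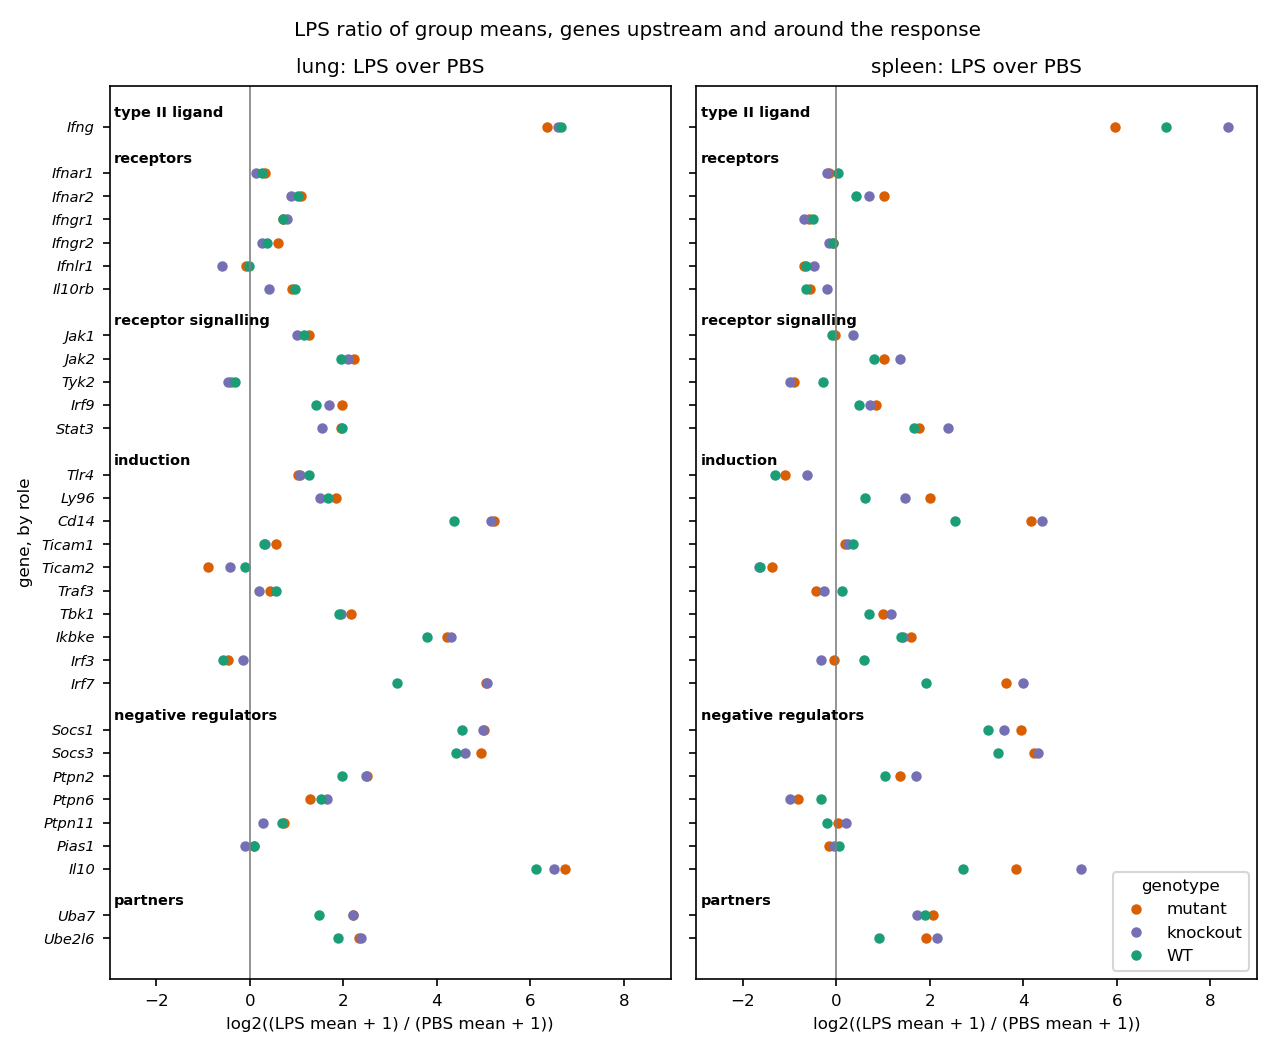
Log2 ratio of the LPS to the PBS group mean (x axis, pseudocount 1) for genes upstream of and around the response (y axis, grouped by role) in lung (left) and spleen (right), with 1 point per genotype. The receptors lie between -0.70 and 1.09, Irf7 between 1.93 and 5.07, and Ifng between 5.97 and 8.39.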

How the data were processed

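RNA from lungs and spleens was sequenced after mRNA isolation, per the labels' protocols. STAR 2.5.3a, Bowtie2, SAMtools, bedtools, DESeq2 and mm10 are named in the submitters' processing notes, without order or settings. Each deposited table gives, per the file headers, 6 group means as a signal normalized by DESeq2's size factors, the authors' log2 folds between genotypes, adjusted p-values (held here as a score) and a call mark. Many means are deposited with 3 significant digits, and the 2 tables were normalized separately. In lung 6 and in spleen 5 broken lines were left out, and 1026 spleen symbols cut over 2 fields were rejoined.

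From these, log2 ratios of group means were computed with a pseudocount of 1 (Python 3.11.15, pandas 2.3.3), with background over entries whose mean reached 10 on one side of the ratio. Member calls use the authors' adjusted p under 0.05, since the tables hold no counts per library. The ratio and motif steps were tested on simulated data. Group totals of normalized counts do not give the depth of a library, and no value per library was used, so no interval was given. Replicates may be technical, and p-values then measure only the spread between these samples. Named in full were called genes, the 5 highest and 4 lowest wild type LPS ratios per tissue and the 4 largest and 3 smallest resting ratios per line and tissue. The members, lists and rules were chosen with earlier results of these data known. Some genes of the pathway lists are not reported here.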

Additional observations from a re-analysis of the deposited data

How the results depend on the processing

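The counts and medians of the members were recomputed with a pseudocount of 5 or 0.1, with no filter, with a mean of at least 50, centred on the median of all entries, with limits of 1.5-fold and 4-fold, with the authors' own limit of 0.1, and with the authors' deposited log2 folds in place of ratios. Of 132 such values, 130 stayed within 1.5-fold of the reported value and none turned to the opposite direction by more than that. All members passed every filter on low means, so those settings could change no value. A pseudocount of 5 or 0.1 is small beside member means of 28.4 and more, so the count of 130 says little about robustness. At 4-fold, 16 members in place of 35 were higher with LPS in wild type spleen. At the authors' limit of 0.1, 4 members in place of 2 were called for knockout over wild type with PBS in spleen. No paired analysis was possible because the tables hold group means and no values per library, and leaving out each replicate could not be run for the same reason. No member symbol was repeated, so no other entry could be tried. Ifnb1 and the interferon-alpha genes were at or near 0, and the part of sequencing depth in this was not tested.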

Other observations

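Outside the set, the 10 entries whose 12 group means, centred within tissue, followed the members' mean profile most closely were Igtp, I830012O16Rik, Tgtp1, Dhx58, mKIAA1554, Eif2ak2, Ifi47, Cd14, Fap and Irgm1, with Pearson correlations of 0.996 to 0.998 among 10242 entries compared. Igtp, Tgtp1, Ifi47 and Irgm1 are immunity-related GTPases best known as targets of interferon-gamma, Dhx58 and Eif2ak2 sense viral RNA, and Cd14 is the co-receptor that hands LPS to Tlr4. Cd14 had lung means of 7400 in mutant, 6880 in knockout and 5620 in wild type with LPS, against 198 in mutant, 193 in knockout and 271 in wild type with PBS, and spleen means of 1580 in mutant, 1660 in knockout and 1220 in wild type against 86.4 in mutant, 77.3 in knockout and 210 in wild type. Among the members the same correlation ran between 0.82 for Epsti1 and 0.998 for Oasl1, with a median of 0.991. These likenesses describe 12 means and carry no test.

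Of 16 genes that lean to interferon-gamma, 14 were below wild type with PBS in mutant and 15 in knockout lung, and 11 in each line in spleen, with median ratios of -0.57 in mutant and -0.24 in knockout lung and of -0.64 in mutant and -0.73 in knockout spleen. Gbp2, a guanylate-binding GTPase, had spleen means of 9050 in mutant, 13100 in knockout and 8500 in wild type with LPS, against 570 in mutant, 451 in knockout and 1590 in wild type with PBS. The class II genes H2-Aa, H2-Ab1, H2-Eb1 and Cd74, with the class II activator Ciita, were the 5 above wild type with PBS in spleen. H2-Aa had PBS means of 6000 in mutant, 5970 in knockout and 4790 in wild type there, beside B cell marker sums of 12896 in mutant, 13590 in knockout and 10407 in wild type, and the part of B cells in it was not tested. Cd14, Gbp2 and the class II genes are named after their values were seen.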
